A study of Mus musculus with 19 samples.

Results

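The expression of 9 receptors, ligands, target genes and lineage factors of the Notch pathway was followed in crypts of the mouse small intestine. The receptors were *Notch1* and *Notch2*, the ligands *Dll1*, *Dll4* and *Jag1*, the targets *Hes1* and *Hey1*, and the secretory factors *Atoh1* and *Gfi1*. These 9 genes were matched by symbol to the Ensembl IDs of the deposited gene files, which list 55487 genes. Of the 9 genes, 8 were among the 17875 genes that passed the filter on low counts and were tested. *Hey1*, with 0 to 4 counts per mouse, was not tested.

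RNA was sequenced from the crypts of 19 C57BL/6 mice aged 10–16 weeks, 1 library per mouse. Neurotensin is a gut peptide encoded by *Nts*, and the mice either carried it (NT+/+) or lacked it (NT-/-). They were fed standard chow ad libitum (AL) or fasted for 48 hours with water only (Fast). There were 5 NT+/+ AL, 4 NT-/- AL, 5 NT+/+ Fast and 5 NT-/- Fast mice. Each group held 3 females and 1 or 2 males, and the labels give no sex for 1 NT-/- Fast mouse. The labels do not say whether any mouse also carried the Lgr5-EGFP-IRES-CreERT2 allele, which some mice of the study did. Crypts were released with EDTA from the proximal part of the small intestine, so each library mixed stem cells, progenitors, Paneth cells and other crypt cells of 1 mouse. Fewer cells of a type and less RNA per cell therefore cannot be told apart.

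Total counts ranged from 9059418 to 35068669 per mouse. *Nts* was 5.42 ± 0.268 to 7.82 ± 0.773 CPM (SD, n = 5) in the NT+/+ groups and 0.314 ± 0.29 (SD, n = 4) to 0.433 ± 0.23 CPM (SD, n = 5) in the NT-/- groups. Replicate 5 of the NT+/+ Fast group carries a genotype label that disagrees with its title. It was grouped by its title, and its *Nts* level lay within the 4.98 to 5.71 CPM of its group. The summed level of 6 epithelial markers, led by *Krt8* and *Vil1*, was 5005 to 6573 CPM in every mouse. Immune markers, led by *Gzma* and *Ptprc*, summed to 79.4 to 235.5 CPM. Endothelial markers, led by *Esam* and *Pecam1*, summed to 3.41 to 5.98 CPM, and 1 or 2 of the 8 were at 0 in each group. Stromal markers, led by *Myh11* and *Col3a1*, summed to 0.864 to 9.38 CPM.

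Notch receptors are cut after they bind a ligand on a neighboring cell, and the freed intracellular part enters the nucleus and joins RBPJ and Mastermind proteins to turn on targets such as *Hes1*. In intestinal crypts HES1 represses *Atoh1*, so cells with high Notch signaling stay progenitors or become absorptive enterocytes. Cells that escape it keep ATOH1, display Notch ligands, and become goblet, Paneth, enteroendocrine or tuft cells, with GFI1 acting below ATOH1 in the goblet and Paneth lineages.

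Promoter sequences are shown for 4 genes that the results below turn on. *Notch2* was the only member that passed the test. *Gfi1* had *Atoh1* as its nearest gene in pattern across mice. *Nrarp*, which is not a member, is a feedback inhibitor and Notch target. Each run holds 250 bases before the RefSeq start and 30 bases from it, 5′ to 3′ on the gene's strand (RefSeq, GRCm38.p6). The *Atoh1* run lies at chr6:64728875-64729154 on the plus strand and the *Gfi1* run, the first of the gene's 2 windows, at chr5:107725776-107726055 on the minus strand. The *Notch2* run lies at chr3:98013288-98013567 and the *Nrarp* run at chr2:25180508-25180787, both on the plus strand. Capitals mark the 6 letters of an N-box, the repressor motif CACNAG, on either strand.
Atoh1: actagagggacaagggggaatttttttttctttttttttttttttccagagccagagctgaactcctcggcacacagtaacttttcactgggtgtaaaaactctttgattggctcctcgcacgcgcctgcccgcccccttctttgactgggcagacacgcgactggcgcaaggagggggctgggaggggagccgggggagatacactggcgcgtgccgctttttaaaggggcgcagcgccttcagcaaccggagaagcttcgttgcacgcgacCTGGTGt
Gfi1: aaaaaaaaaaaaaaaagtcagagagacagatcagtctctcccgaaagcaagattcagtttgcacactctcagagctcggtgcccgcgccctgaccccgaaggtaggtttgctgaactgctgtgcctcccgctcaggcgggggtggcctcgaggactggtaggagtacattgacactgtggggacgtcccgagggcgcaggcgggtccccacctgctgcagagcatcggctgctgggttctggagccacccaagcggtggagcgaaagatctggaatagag
Notch2: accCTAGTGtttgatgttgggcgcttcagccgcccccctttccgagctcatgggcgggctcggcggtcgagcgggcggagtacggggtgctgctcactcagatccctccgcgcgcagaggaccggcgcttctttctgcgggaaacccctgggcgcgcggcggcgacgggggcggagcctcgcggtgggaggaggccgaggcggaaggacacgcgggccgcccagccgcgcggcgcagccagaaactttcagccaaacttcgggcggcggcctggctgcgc
Nrarp: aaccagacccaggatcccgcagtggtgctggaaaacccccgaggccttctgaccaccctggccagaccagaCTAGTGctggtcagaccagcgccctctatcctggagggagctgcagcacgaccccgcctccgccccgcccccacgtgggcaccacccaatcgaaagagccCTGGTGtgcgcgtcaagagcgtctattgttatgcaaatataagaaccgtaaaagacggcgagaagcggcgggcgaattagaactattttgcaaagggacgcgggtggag

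Promoter windows of 300 bases, which run 20 bases further into the gene than the printed runs, were found for 7 of the 9 members. The members without a window were the Notch targets *Hes1* and *Hey1*, so their promoters were not searched. Members were counted by gene, and *Dll1* and *Gfi1* have 2 windows each. The shares over all are of single windows, so the measures differ. An N-box was present in windows of 5 of these 7, and in 42.5% of all 32851 windows. *Notch1* held 3, and *Notch2*, *Dll1*, *Dll4* and *Atoh1* held 1 each. The *Atoh1* match began at base 274 of the window and the *Notch2* match at base 4. Neither window of *Gfi1* held one, and *Nrarp* held 2. The RBPJ core TGGGAA occurred in none of the 7 members' windows and in 25.6% of all windows. The E-box CAGCTG, to which ATOH1 can bind, occurred in *Dll1* and *Jag1* of the members, in *Nrarp* (from base 283, past the printed run), and in 16.3% of all windows. Both strands were searched, no run of letters can match 2 of the motifs at once, and a match is a description of letters only. The same windows of the other Notch pathway genes held the RBPJ core in 16, the E-box in 7 and the N-box in 18 of the 47 genes with a window.

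Levels of different genes were compared in TPM, which is scaled for length. In NT+/+ AL mice *Hes1* led at 27.95 ± 6.12 TPM (SD, n = 5), followed by *Dll1* at 20.0 ± 3.66, *Atoh1* at 17.3 ± 3.63, *Notch1* at 11.3 ± 1.78, *Notch2* at 7.05 ± 0.973, *Jag1* at 6.91 ± 0.831, *Dll4* at 5.46 ± 0.456 and *Gfi1* at 3.42 ± 0.672. *Hey1* was 0.048 ± 0.0476 TPM. Neighbors in this order overlapped between mice for *Hes1* and *Dll1*, for *Dll1* and *Atoh1*, for *Notch2* and *Jag1*, and for *Jag1* and *Dll4*. The ranges of *Atoh1* and *Notch1*, of *Notch1* and *Notch2*, of *Dll4* and *Gfi1*, and of *Gfi1* and *Hey1* did not overlap. Of the 3 ligand genes *Dll1* was the highest, and its range did not overlap that of *Jag1* or *Dll4*. *Hes1* led and *Gfi1* and *Hey1* came last in all 4 groups.

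Fasting was compared with feeding within each genotype, and differences are log2 fold changes of CPM, which are counts scaled to library sizes adjusted by edgeR's TMM method. A gene was called where edgeR's quasi-likelihood test gave it an adjusted p under 0.05, with Benjamini-Hochberg correction over the 17875 genes. The fit held no term for litters or other matched sets of mice. In NT+/+ mice 0 of 8 members were called after fasting, against 21.6% of all genes tested. The smallest adjusted p was 0.214, for *Dll1*, and 0 of 8 had an unadjusted p under 0.05. DESeq2 also called 0 of the 8. Among NT-/- mice 1 of 8 members was called, *Notch2*, which was lower, against 25.2% of all genes. The count was 2 without NT-/- Fast replicate 1, with *Atoh1* added. The members' median log2 fold change was 0.02 in NT+/+ mice and −0.16 in NT-/- mice, and the median over all genes was −0.01 and −0.02.

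**Figure D1:**
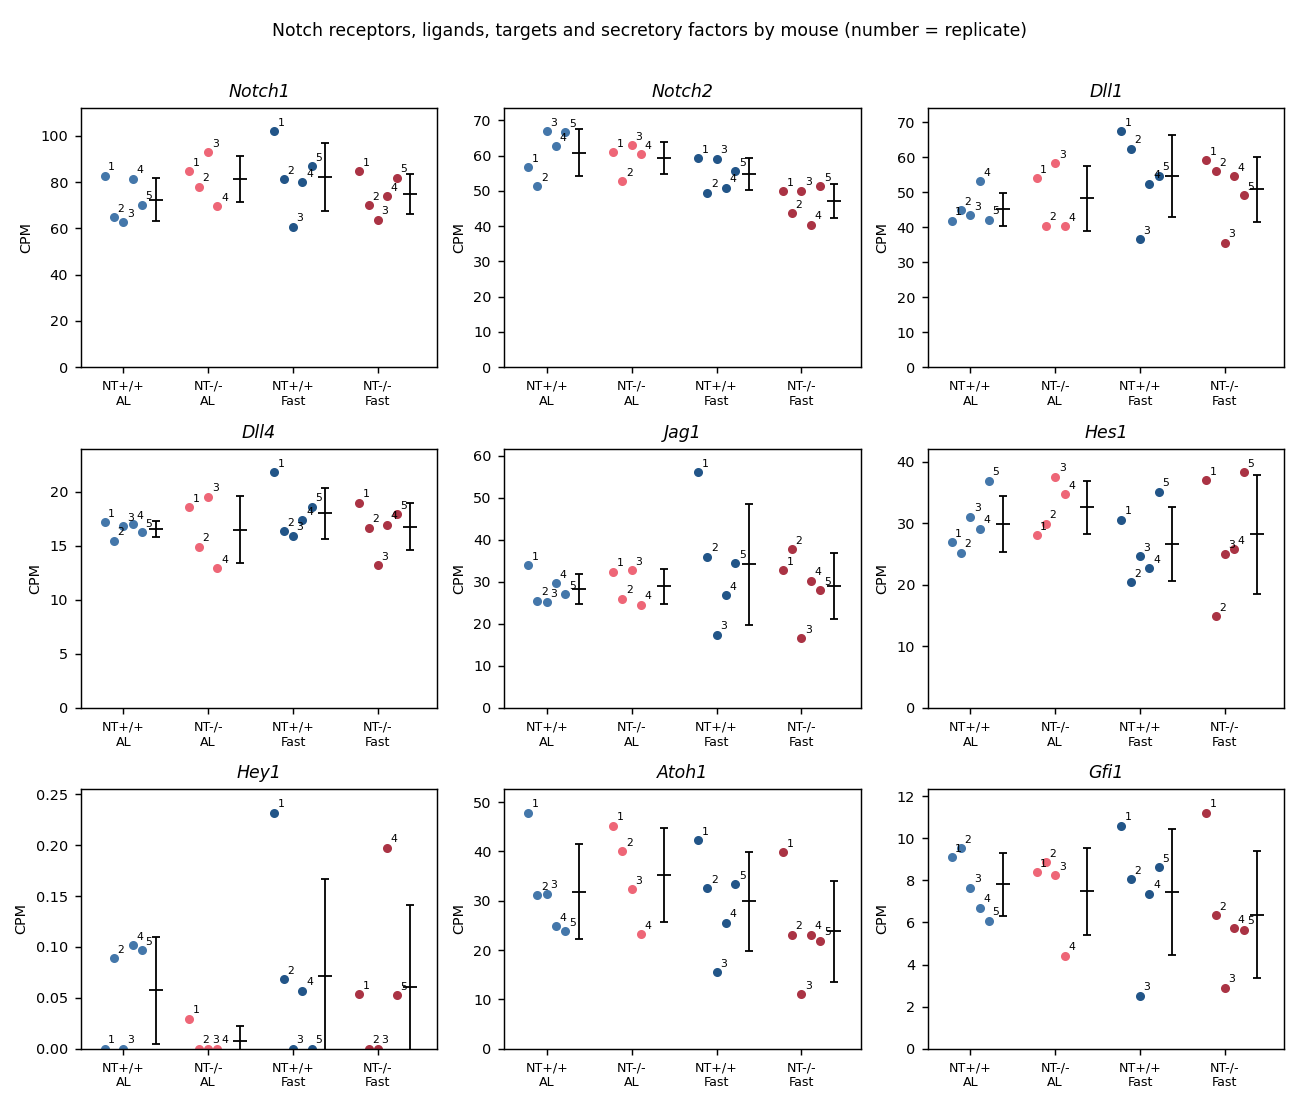
CPM of each of the 9 genes (y axis) in every mouse of the 4 groups (x axis), with the replicate number beside each point and the mean ± SD as a black bar. *Notch2* in the 5 NT-/- Fast mice lay at 40.3 to 51.3 CPM, below all 4 NT-/- AL mice, and replicate 3 of both Fast groups was the lowest of its group for *Notch1*, *Dll1*, *Dll4*, *Jag1*, *Atoh1* and *Gfi1*.

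*Notch2* (chromosome 3, 98013527–98150361, plus strand, GRCm38) encodes a receptor that acts beside NOTCH1 in intestinal crypts. In NT-/- AL mice it was 61.0, 52.8, 63.0 and 60.4 CPM in replicates 1 to 4. In NT-/- Fast mice it was 49.98, 43.7, 50.1, 40.3 and 51.3 CPM in replicates 1 to 5. Every fasted mouse lay below every fed mouse, which 21.3% of all genes also showed in one direction or the other in this comparison. The mean fell from 59.3 ± 4.46 (SD, n = 4) to 47.1 ± 4.80 CPM (SD, n = 5), a change of −0.33 ± 0.092 (standard error) on the log2 scale (adjusted p = 0.0122 by edgeR's quasi-likelihood test).

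In NT+/+ AL mice *Notch2* was 56.8, 51.4, 66.9, 62.7 and 66.6 CPM, and in NT+/+ Fast mice it was 59.3, 49.5, 59.1, 50.9 and 55.7 CPM. These groups overlapped, and 2 of 5 fasted mice lay below all fed mice. The log2 fold change was −0.15 (95% interval −0.33 to 0.04, adjusted p = 0.238, same test). The effect of fasting in NT-/- mice minus that in NT+/+ mice was −0.18 (95% interval −0.45 to 0.09), and its adjusted p was 1 in edgeR's quasi-likelihood test, so a genotype difference in the response of *Notch2* was not shown. Its call in NT-/- mice held in all 19 fits that left out 1 mouse (adjusted p, 0.00772–0.0442, edgeR).

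*Notch1* (chromosome 2, 26457903–26516663, minus strand) encodes the other main receptor of crypt cells. It was 82.8, 64.9, 62.6, 81.6 and 70.2 CPM in NT+/+ AL mice and 102.0, 81.3, 60.8, 79.96 and 86.9 CPM in NT+/+ Fast mice. Its values in NT-/- mice were 84.8, 78.1, 92.98 and 69.6 CPM AL and 84.6, 70.1, 63.7, 73.98 and 81.95 CPM after fasting. Fed and fasted mice overlapped in both genotypes. The log2 fold change was 0.18 (95% interval −0.07 to 0.44) in NT+/+ and −0.12 (95% interval −0.39 to 0.15) in NT-/- mice, with adjusted p of 0.306 and 0.545 in edgeR's quasi-likelihood test.

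*Dll1* (chromosome 17, 15367354–15376872, minus strand) and *Dll4* (chromosome 2, 119325784–119335962, plus strand) encode the Delta-like ligands that secretory cells present to their neighbors. *Dll1* was 41.8, 44.8, 43.5, 53.2 and 42.1 CPM in NT+/+ AL mice and 67.4, 62.4, 36.6, 52.4 and 54.7 CPM in NT+/+ Fast mice. Of the 5 fasted NT+/+ mice, 3 lay above and 1 below all fed NT+/+ mice. Its log2 fold change of 0.28 (95% interval −0.05 to 0.60, adjusted p = 0.214, edgeR's quasi-likelihood test) was the highest of the members in this comparison. Without the 3 mice whose deposited file names bear the number 3, all labelled replicate 3, it was 0.38 and passed the test (adjusted p = 0.0466, edgeR's quasi-likelihood test). That fit was chosen after seeing the data. It leaves out the fasted NT+/+ mouse that lay below all fed mice, so its pass cannot support a rise of *Dll1*. In the 19 fits that left out 1 mouse the adjusted p was at least 0.0533 (same test).

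In NT-/- AL mice *Dll1* was 53.95, 40.4, 58.3 and 40.2 CPM, and in NT-/- Fast mice it was 59.1, 55.9, 35.5, 54.6 and 49.0 CPM. The groups overlapped, and the log2 fold change was 0.07 (95% interval −0.28 to 0.42). *Dll4* ranged from 15.5 to 17.2 CPM in NT+/+ AL, 12.9 to 19.6 in NT-/- AL, 15.95 to 21.8 in NT+/+ Fast and 13.2 to 19 CPM in NT-/- Fast mice. Its log2 fold change with fasting was 0.12 in NT+/+ and 0.02 in NT-/- mice, and neither passed the test (adjusted p = 0.503 and 0.929, edgeR).

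*Jag1* (chromosome 2, 137081456–137116644, minus strand) encodes a ligand of the Serrate/Jagged type. It was 34.0, 25.5, 25.2, 29.7 and 27.1 CPM in NT+/+ AL mice and 56.1, 35.95, 17.4, 26.8 and 34.4 CPM in NT+/+ Fast mice. Mice without neurotensin had 32.4, 26.0, 32.7 and 24.6 CPM AL and 32.8, 37.8, 16.6, 30.3 and 28.0 CPM after fasting. Fasted mice spanned the fed mice on both sides. The SD was 3.66 CPM in NT+/+ AL and 14.3 CPM in NT+/+ Fast mice, with replicate 1 highest and replicate 3 lowest. Its log2 fold change was 0.27 (95% interval −0.22 to 0.76) in NT+/+ mice and 0.00 (95% interval −0.52 to 0.52) in NT-/- mice.

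*Hes1* (chromosome 16, 30064384–30067796, plus strand) encodes the repressor that Notch signaling turns on to hold *Atoh1* down. It was 26.9, 25.2, 31.1, 29.1 and 36.9 CPM in NT+/+ AL mice and 30.5, 20.4, 24.6, 22.7 and 35.1 CPM in NT+/+ Fast mice. In NT-/- mice it was 28.1, 29.9, 37.6 and 34.7 CPM AL and 37.0, 14.9, 25.0, 25.7 and 38.3 CPM after fasting. In each genotype 3 of 5 fasted mice lay below all fed mice, and the other two lay within or above the fed range. The log2 fold change was −0.16 (95% interval −0.57 to 0.26) in NT+/+ and −0.19 (95% interval −0.63 to 0.25) in NT-/- mice, with adjusted p of 0.611 and 0.543 in edgeR's quasi-likelihood test.

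*Hey1* (chromosome 3, 8663359–8667256, minus strand), another target and repressor of the same family, was at 0 counts in 9 of the 19 mice. Its highest value was 4 counts, or 0.232 CPM, in NT+/+ Fast replicate 1. A level this low gave no usable comparison at this depth.

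*Atoh1* (chromosome 6, 64729125–64731245, plus strand) encodes the factor that commits a crypt cell to a secretory fate. It was 47.8, 31.2, 31.4, 24.9 and 23.9 CPM in NT+/+ AL mice and 42.3, 32.5, 15.5, 25.6 and 33.4 CPM in NT+/+ Fast mice. These groups overlapped, and their log2 fold change was −0.09 (95% interval −0.70 to 0.51, adjusted p = 0.854, edgeR's quasi-likelihood test). Its values in NT-/- mice were 45.2, 40.1, 32.4 and 23.2 CPM AL and 39.8, 23.2, 11.1, 23.1 and 21.9 CPM after fasting. Of the 5 fasted NT-/- mice, 4 lay below all 4 fed NT-/- mice. Replicates 2 and 4, at 23.15 and 23.08 CPM, were just under the lowest fed value of 23.17 CPM, and replicate 1 lay within the fed range.

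The log2 fold change of *Atoh1* in NT-/- mice was −0.56 (95% interval −1.21 to 0.08), which did not pass the test (adjusted p = 0.187, edgeR's quasi-likelihood test). Without NT-/- Fast replicate 1 it was −0.84 and passed (adjusted p = 0.0403, same test), and without NT-/- Fast replicate 3 it was −0.38 (adjusted p = 0.381, same test). Fasting's log2 effect in NT-/- mice minus that in NT+/+ mice was −0.47 for *Atoh1*, the lowest of the 8 tested members, and −0.04 for *Hes1*, the highest. It was below 0 for all 8, was called for 0 of 8, and was called for 0% of all genes. The median was −0.19 for the members and −0.01 over all genes, and the share of all genes below 0 was not counted. All 8 were measured in the same mice, so their signs are not separate observations. The sign turned in 7 of the 19 fits without 1 mouse for *Hes1* and in 2 for *Gfi1*. At an unadjusted p under 0.05 the difference was seen in 0 of the 8 members and in 485 of all genes. DESeq2 called 0 of the 8 members.

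*Gfi1* (chromosome 5, 107716657–107726036, minus strand) encodes a factor that acts below ATOH1 in Paneth and goblet cells. It was 9.12, 9.52, 7.66, 6.70 and 6.09 CPM in NT+/+ AL mice and 10.6, 8.05, 2.52, 7.37 and 8.62 CPM in NT+/+ Fast mice. Mice without neurotensin had 8.38, 8.88, 8.23 and 4.42 CPM AL and 11.2, 6.35, 2.89, 5.72 and 5.65 CPM after fasting. Fed and fasted mice overlapped in both genotypes. It changed by −0.08 (adjusted p = 0.893) in NT+/+ and −0.23 (adjusted p = 0.68) in NT-/- mice on the log2 scale, both by edgeR's quasi-likelihood test.

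**Figure D2:**
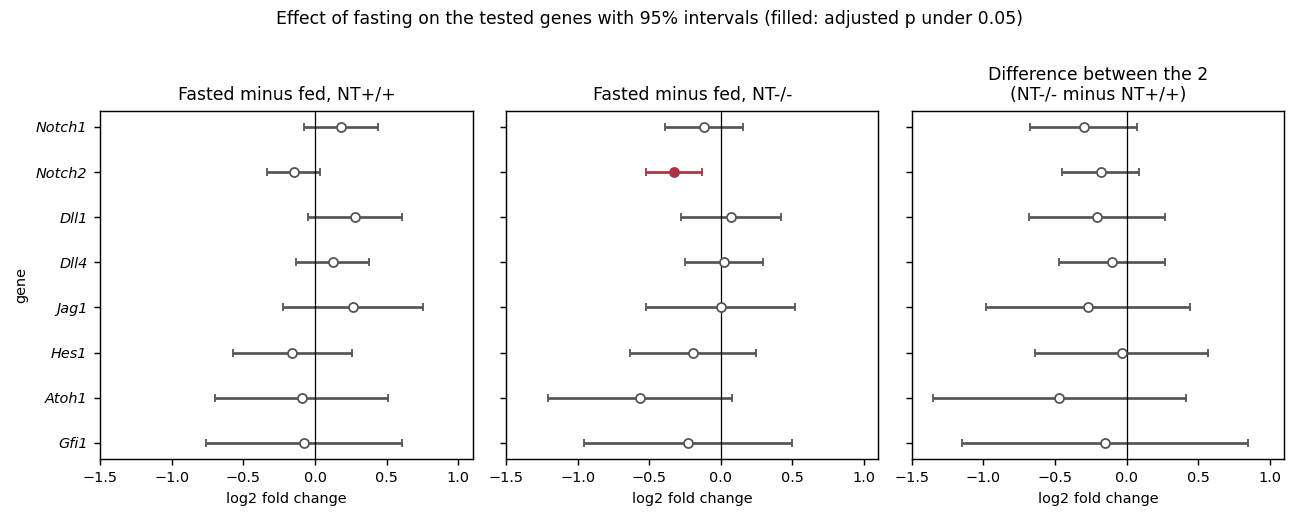
Log2 fold change of the 8 tested genes (x axis) with 95% intervals, for fasting in NT+/+ mice, fasting in NT-/- mice, and the second minus the first. A filled point passed the test at an adjusted p under 0.05, which only *Notch2* in NT-/- mice did, and all 8 differences between the genotypes lie below 0 with intervals that include 0.

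In 3 of the 4 groups 1 mouse was lowest for most members. Replicate 3 of the NT+/+ Fast group was lowest of its group for 6 of the 8 tested members, *Notch1*, *Dll1*, *Dll4*, *Jag1*, *Atoh1* and *Gfi1*. Replicate 3 of the NT-/- Fast group was lowest for the same 6 genes, and so was replicate 4 of the NT-/- AL group. Replicate 1 was highest of its group for 7 of the 8 in NT+/+ Fast mice and for 5 of the 8 in NT-/- Fast mice. In NT+/+ AL mice no such mouse was seen, and the lowest values were spread over replicates 1, 2, 3 and 5. *Hes1* went another way, with replicate 2 lowest in both Fast groups and replicate 5 highest. *Notch2* was not lowest in replicate 3 of either Fast group. These mice differ in other measures too. The summed level of 8 enterocyte markers was 6890 CPM in NT+/+ Fast replicate 1 and 14190 CPM in replicate 3, and 13150 and 17720 CPM in replicates 1 and 3 of the NT-/- Fast group. Its part in the members' levels was not tested.

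The ratio of *Hes1* to *Atoh1* CPM in a mouse summarizes the balance of the 2 genes. Its median was 0.987 (range, 0.562–1.55) in NT+/+ AL, 0.954 (0.621–1.5) in NT-/- AL, 0.888 (0.627–1.59) in NT+/+ Fast and 1.12 (0.642–2.26) in NT-/- Fast mice. The ranges overlapped, although 2 of the 5 NT-/- Fast mice, replicates 3 and 5, lay above every mouse of the other groups. The highest ratio belonged to replicate 3 in both Fast groups.

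For each tested member the genes of most similar pattern were found as those with the smallest root mean square difference in standardized log2 CPM over the 19 mice. For *Gfi1* the nearest of all tested genes was *Atoh1*, at 0.414 SD, followed by *Rep15* at 0.417. For *Atoh1* the nearest were *Rep15* at 0.302 and *Foxa3*, which encodes a factor of goblet cells, at 0.314 SD. The nearest to *Dll1* were *Myc* (0.456) and *Sema7a* (0.467), and the nearest to *Notch2* were *Pfas* (0.366), an enzyme of purine synthesis, and *Rpf2* (0.398), a factor of ribosome assembly. For *Notch1* they were *Prr12* (0.448) and *Zfp12* (0.51), for *Jag1* *Zfp46* (0.39) and *Zbtb9* (0.421), for *Dll4* *Brd2* (0.534) and *Polr1c* (0.558), and for *Hes1* *Nfia* (0.554) and *Pcca* (0.59). These distances describe 19 libraries that share groups and depth, and carry no test.

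NT-/- mice were compared with NT+/+ mice in each diet. In AL mice 0 of 8 members were called, against 0.00559% of all genes (the 1 gene called was *Nts*), with log2 fold changes from −0.06 for *Gfi1* to 0.17 for *Notch1*. In Fast mice 0 of 8 were called, again against 0.00559% (*Nts*). *Notch2* came nearest, lower in NT-/- mice by a log2 fold change of −0.22 (standard error 0.087, unadjusted p = 0.0215, adjusted p = 0.444, edgeR's quasi-likelihood test), with 2 of 5 NT-/- mice below all 5 NT+/+ mice. Of the other members, 0 had an unadjusted p under 0.05 in Fast mice, and 0 of 8 did in AL mice. DESeq2 called 0 of 8 members in either diet. Of the members' log2 fold changes in Fast mice, 1 of 8 was above 0, *Hes1* at 0.09. The median was −0.17, against −0.01 over all genes.

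Beyond the 9 genes, 60 other genes of the Notch pathway were listed by role, and 53 were tested. In NT+/+ mice 10 of 53 were called, 5 higher and 5 lower. For NT-/- mice 15 of 53 were called, 8 higher and 7 lower. As shares these were near the 21.6% and 25.2% of all genes. Of these calls 9 were made in both genotypes, each in the same direction. *Adam17*, *Hdac2*, *Nrarp* and *Olfm4* fell, and *Ncstn*, *Maml2*, *Maml3*, *Numb* and *Dtx4* rose.

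The transcript of the Notch target *Nrarp*, a feedback inhibitor that acts on the receptor's intracellular part, was 34.1, 25.6, 35.6, 42.4 and 31.9 CPM in NT+/+ AL mice and 26.4, 22.6, 17.3, 24.2 and 27.8 CPM in NT+/+ Fast mice. In NT-/- mice it was 33.6, 27.3, 42.9 and 36.7 CPM AL and 23.7, 20.7, 19.7, 23.97 and 27.4 CPM after fasting. The groups overlapped in each genotype through AL replicate 2, the lowest fed mouse in both. The log2 fold change was −0.52 (standard error 0.144, adjusted p = 0.0138) in NT+/+ and −0.60 (standard error 0.153, adjusted p = 0.00654) in NT-/- mice, both by edgeR's quasi-likelihood test. Without the 3 mice of file number 3 it was −0.41 in NT+/+ mice and did not pass (adjusted p = 0.0713, edgeR).

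*Olfm4*, a stem cell gene that Notch signaling also controls, was 1444 to 2413 CPM in NT+/+ AL, 715.3 to 1658 in NT+/+ Fast, 1249 to 2071 in NT-/- AL and 771.2 to 1065 CPM in NT-/- Fast mice. The NT-/- groups did not overlap, which 21.3% of all genes also showed, and the NT+/+ groups did. Its log2 fold change was −0.63 (adjusted p = 0.0322) in NT+/+ and −0.92 (adjusted p = 0.00409) in NT-/- mice by edgeR. In NT+/+ mice the call was lost in 5 of the 19 fits without 1 mouse, those without AL replicate 3 or 5 or Fast replicate 2, 3 or 4 (adjusted p up to 0.0976, edgeR). Of the other targets listed, 4 of 8 were tested, and those called were these 2. Over all genes 21.6% were called in NT+/+ and 25.2% in NT-/- mice.

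Among the proteases that cut the receptor, *Adam17*, which encodes a surface sheddase, was 42.0 to 49.9 CPM in NT+/+ AL and 28.2 to 36.3 CPM in NT+/+ Fast mice. Its values in NT-/- mice were 39.1 to 48.5 CPM AL and 28.7 to 33.7 CPM after fasting. The groups did not overlap in either genotype, which 14.6% of all genes in NT+/+ and 21.3% in NT-/- mice also showed. The log2 fold change was −0.48 (adjusted p = 0.00025) and −0.47 (adjusted p = 0.000405, edgeR's quasi-likelihood test). *Adam10*, the sheddase best known for cutting Notch, changed by −0.37 in NT+/+ mice, which passed (adjusted p = 0.00982, edgeR), and by −0.26 in NT-/- mice, which did not (adjusted p = 0.069, edgeR). *Ncstn*, which encodes the gamma-secretase subunit nicastrin, rose by 0.31 in NT+/+ and 0.39 in NT-/- mice on the log2 scale. Of 8 proteases and subunits tested, 3 were called in NT+/+ and 2 in NT-/- mice, against 21.6% and 25.2% of all genes.

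Among the 9 nuclear coactivators tested, the Mastermind-like genes *Maml2* and *Maml3* rose in both genotypes, and they were the 2 called. Of 9 corepressors 1 was called in NT+/+ and 2 in NT-/- mice, and over all genes 21.6% and 25.2% were called. *Maml3* went from 22.9 ± 2.23 to 34.6 ± 3.08 CPM (SD, n = 5) in NT+/+ mice, a log2 fold change of 0.60 (adjusted p = 3.96e-05, edgeR). In NT-/- mice it went from 26.3 ± 2.21 (SD, n = 4) to 33.0 ± 1.92 CPM (SD, n = 5), a log2 fold change of 0.33 (adjusted p = 0.00787, edgeR). *Maml2*, at 1.65 to 5.03 CPM, rose by 0.86 in NT+/+ and 1.0 in NT-/- mice on the log2 scale. Of the 9 corepressor genes, *Hdac2*, a histone deacetylase, fell in both genotypes (log2 fold change, −0.37 and −0.38), and *Cir1* was called higher in NT-/- mice, a call lost without NT-/- AL replicate 1 (adjusted p = 0.051, edgeR).

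Of 8 genes listed as negative regulators, the Deltex genes among them, 2 were called in NT+/+ mice and 4 in NT-/- mice. All were higher, where all genes gave 21.6% and 25.2% in either direction. Whether each listed gene holds Notch signaling back in crypts was not tested. *Numb*, whose product sends Notch receptors to degradation, was 64.0, 76.9, 72.7, 77.0 and 75.3 CPM in NT+/+ AL mice and 96.3, 108.9, 85.7, 114.9 and 98.2 CPM in NT+/+ Fast mice. Mice without neurotensin had 71.8, 70.9, 72.4 and 80.8 CPM AL and 100.2, 117.2, 94.95, 108.4 and 113.6 CPM after fasting. Every fasted mouse was above every fed mouse, and the log2 fold change was 0.46 (adjusted p = 0.000468) and 0.53 (adjusted p = 0.000201, edgeR). *Dtx4*, a Deltex gene for a ubiquitin ligase, rose by 0.55 and 0.60 on the log2 scale. Ranges that did not overlap were found for 14.6% of all genes in NT+/+ and 21.3% in NT-/- mice. *Itch* and *Numbl* were called in NT-/- mice alone. The call of *Itch* was lost in 6 of the 19 fits without 1 mouse (NT-/- AL replicates 1, 2 and 3 and NT-/- Fast replicates 3, 4 and 5; adjusted p up to 0.1), and that of *Numbl* in 10 of 19 (all 4 NT-/- AL mice, NT-/- Fast replicates 2, 3 and 4 and NT+/+ AL replicates 2, 3 and 5; adjusted p up to 0.192, edgeR).

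Of the 4 other receptors and ligands tested, none was called in NT+/+ mice, against 21.6% of all genes, and 1 had an unadjusted p under 0.05. In NT-/- mice 2 of the 4 were called, against 25.2% of all genes. *Dll3*, a ligand gene marking early enteroendocrine cells, was lower in fasted than in fed NT-/- mice at 0.354 against 0.933 CPM, a log2 fold change of −1.28 (adjusted p = 0.00637, edgeR). Its counts were low, at 16 to 33 per mouse in NT-/- AL and 1 to 11 in NT-/- Fast mice. *Notch4*, a receptor gene best known in vessels, was called lower too (−0.50, adjusted p = 0.0484, edgeR). That call was lost in 12 of the 19 fits without 1 mouse, namely NT+/+ AL replicates 2 to 5, NT-/- AL replicates 1 to 3, NT+/+ Fast replicates 1, 4 and 5 and NT-/- Fast replicates 2 and 4 (adjusted p up to 0.134, edgeR). *Mib2*, one of 5 genes for ligases that act on ligands, fell by 0.39 on the log2 scale in NT-/- mice (adjusted p = 0.00941, edgeR). Of 6 genes for enzymes that put sugars on the receptors, 0 were called in either genotype, against 21.6% and 25.2% of all genes. Among them 2 in NT+/+ and 1 in NT-/- mice had an unadjusted p under 0.05.

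**Figure D3:**
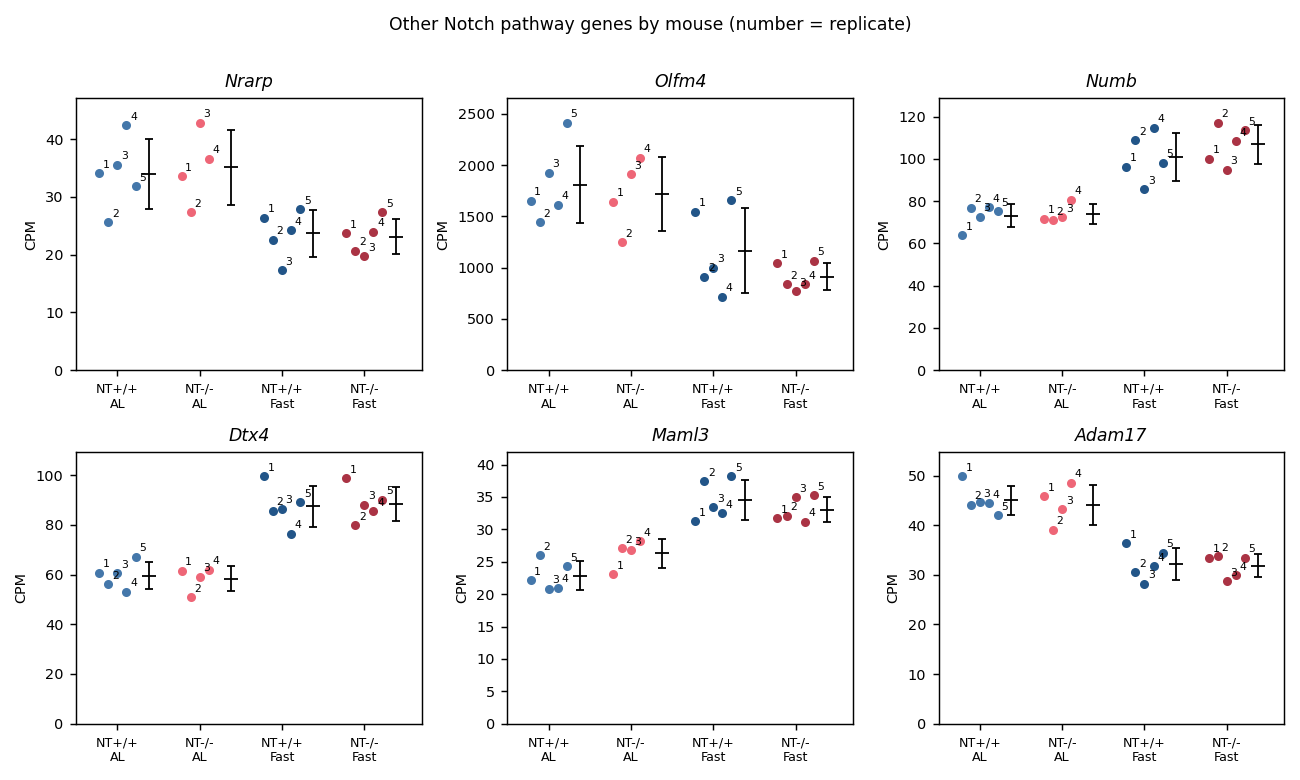
CPM (y axis) of 6 other Notch pathway genes in every mouse of the 4 groups (x axis), with replicate numbers and the mean ± SD as a black bar. *Nrarp*, *Olfm4* and *Adam17* were lower, and *Numb*, *Dtx4* and *Maml3* higher, in Fast than in AL mice of both genotypes.

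Between the genotypes 0 of the 53 genes were called in either diet or in the difference between the effects of fasting, by edgeR and by DESeq2. At an unadjusted p under 0.05 there were 1 in AL mice, 5 in Fast mice and 1 in the difference. Those of smallest p were *Maml3* (log2 fold change 0.20), *Lfng* (0.28) and *Dll3* (0.33) in AL mice, and *Kat2b* (0.29), *Itch* (0.15) and *Neurl3* (0.21) in Fast mice. For the difference they were *Maml3* (−0.26), *Dll3* (−0.89) and *Kat2b* (0.24).

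Of 16 other factors of the secretory lineages, 2 were called with fasting in NT+/+ mice, *Klf4* and *Xbp1*, both higher. Of the same factors 3 were called in NT-/- mice, *Klf4* higher, and *Neurog3* and *Creb3l1* lower. As shares both counts lay below the 21.6% and 25.2% of all genes. *Neurog3*, which commits cells to the enteroendocrine lineage, was 2.74, 2.87, 4.96 and 2.34 CPM in NT-/- AL mice and 2.08, 0.794, 0.289, 1.38 and 2.06 CPM in NT-/- Fast mice. Every fasted mouse was below every fed mouse, and 21.3% of all genes also had ranges without overlap in this comparison. Counts were low, at 44 to 103 per mouse in NT-/- AL and 5 to 39 in NT-/- Fast mice. The log2 fold change was −1.25 (standard error 0.398, adjusted p = 0.0265 by edgeR's quasi-likelihood test). In NT+/+ mice *Neurog3* was 3.60, 1.60, 2.25, 2.23 and 2.03 CPM AL and 2.61, 1.09, 1.13, 1.71 and 2.24 CPM after fasting, a log2 fold change of −0.41 (adjusted p = 0.472, same test). The difference between the genotypes was −0.84 (standard error 0.546, adjusted p = 1, same test).

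*Creb3l1*, a factor of secretory cells, changed by −0.74 in NT-/- mice (standard error 0.242, adjusted p = 0.0311) and by −0.23 in NT+/+ mice (adjusted p = 0.516, edgeR). *Spdef*, which drives goblet and Paneth maturation, was 23.1 to 72.8 CPM in NT-/- AL and 17.9 to 41.9 CPM in NT-/- Fast mice, and its log2 fold change of −0.91 did not pass (adjusted p = 0.0546, edgeR). *Klf4*, a goblet and differentiation factor, rose by 0.46 (adjusted p = 0.025) and 0.60 (adjusted p = 0.00646) on the log2 scale. *Xbp1*, which enlarges the secretory apparatus, rose by 0.31 in NT+/+ mice (adjusted p = 0.0347, edgeR) and changed by 0.21 in NT-/- mice (adjusted p = 0.18, edgeR).

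The counts over these 16 factors rested on single mice. For NT-/- mice the 3 calls became 1 without Fast replicate 2 or Fast replicate 3, 5 without AL replicate 4, and 6 without Fast replicate 1. In NT+/+ mice the 2 calls became 0 without AL replicate 4 and 1 without AL replicate 2 or 3 or Fast replicate 2, 3 or 4. *Neurog3* did not pass without NT-/- AL replicate 3 or NT-/- Fast replicate 2 or 3 (adjusted p up to 0.117), and *Creb3l1* did not without NT-/- AL replicate 1 or 2 or NT-/- Fast replicate 2, 3 or 4 (adjusted p up to 0.143, edgeR).

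Between the genotypes 0 of the 16 factors were called in AL mice, in Fast mice, or in the difference, by edgeR and by DESeq2, and 0 had an unadjusted p under 0.05. The smallest p values belonged to *Neurog3* (log2 fold change 0.46), *Foxa2* (0.22) and *Spdef* (0.35) in AL mice, to *Insm1* (−0.31), *Creb3l1* (−0.37) and *Xbp1* (−0.12) in Fast mice, and to *Insm1* (−0.42), *Neurog3* (−0.84) and *Creb3l1* (−0.51) in the difference.

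**Figure D4:**
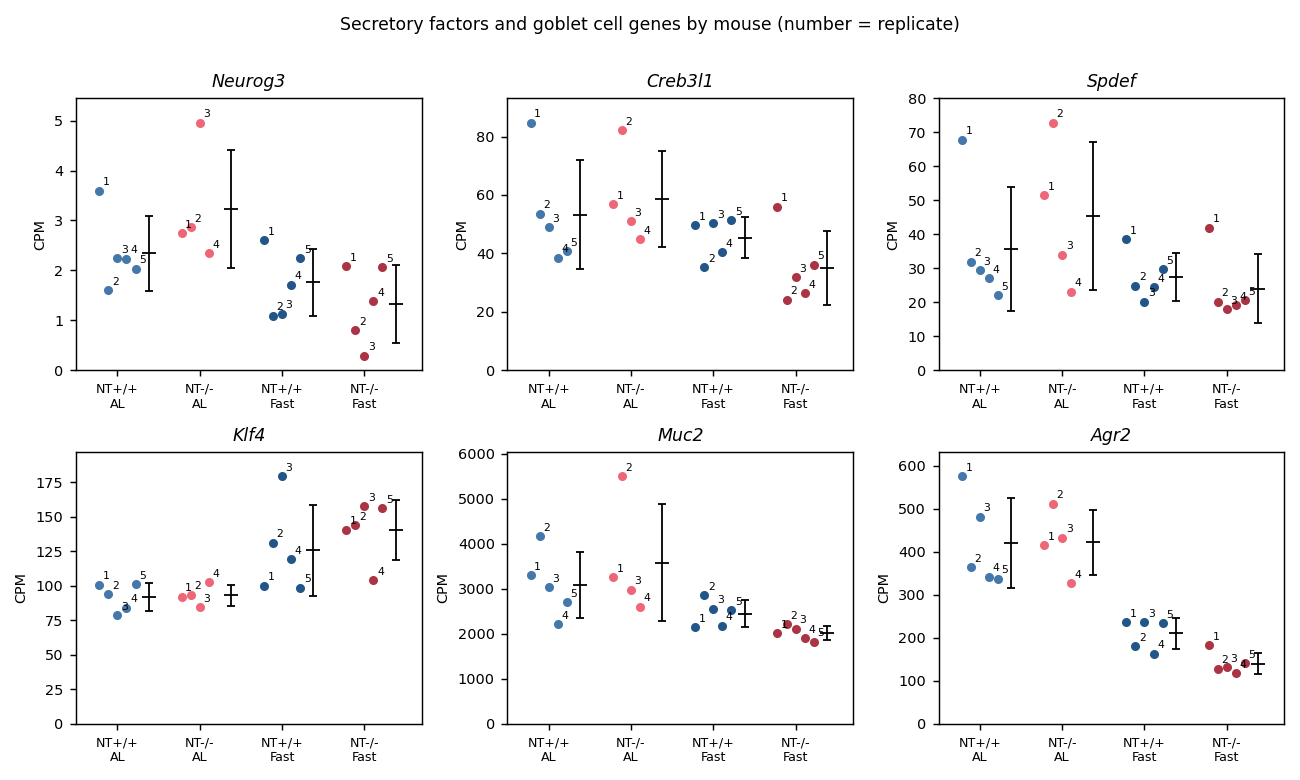
CPM (y axis) of 4 secretory factors and 2 goblet cell genes in every mouse of the 4 groups (x axis), with replicate numbers and the mean ± SD as a black bar. *Neurog3*, *Muc2* and *Agr2* in NT-/- Fast mice lay below all NT-/- AL mice, and *Klf4* lay above them. In this comparison 21.3% of all genes had ranges without overlap.

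Marker genes of the mature lineages moved beside these factors. Of 8 goblet cell markers, which summed to 9508–13700 CPM in NT+/+ AL and 9805–11500 CPM in NT+/+ Fast mice, *Agr2*, a disulfide isomerase for mucins, and *Clca1* fell in NT+/+ mice, and *Zg16*, which encodes a lectin of mucus, rose. Their log2 fold changes were −1.0, −1.51 and 0.93. For NT-/- mice, whose sum was 9732–15460 CPM AL and 7863–10680 CPM after fasting, *Agr2* (−1.59), *Clca1* (−2.22), *Muc2* (−0.83), the main secreted mucin gene, and *Spink4* (−1.31) fell and *Zg16* (1.25) rose. *Spink4* did not pass without NT-/- AL replicate 1 (adjusted p = 0.0524, edgeR). *Fcgbp*, the most abundant of the list, was not called. Calls were made for 3 of the 8 in NT+/+ and 5 of the 8 in NT-/- mice, against 21.6% and 25.2% of all genes. The goblet markers thus did not move one way.

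Of 8 Paneth cell markers, led by *Defa24* and *Lyz1*, *Mptx2* fell in both genotypes (log2 fold change, −1.15 and −1.75), and *Defa17* was called lower in NT-/- mice alone (−0.72). The other Paneth markers were not called, and over all genes 21.6% and 25.2% were called. Log2 fold changes were above 0 for 5 of the 8 in NT+/+ and 2 of the 8 in NT-/- mice, with medians of 0.09 and −0.17. The sum was 18380–44930 CPM over all mice. Of 8 enteroendocrine markers, led by *Chgb* and *Chga*, 2 were called in NT+/+ and 3 in NT-/- mice, against 21.6% and 25.2% of all genes. *Sst* rose by 0.55 and 0.68 and *Chga* by 0.39 and 0.42 on the log2 scale, and *Gcg* fell by 0.49 in NT-/- mice. Of 7 tuft cell markers tested, led by *Dclk1* and *Trpm5*, 0 were called in either genotype by edgeR, against 21.6% and 25.2% of all genes. None of them had an unadjusted p under 0.05. Several of these calls rested on single mice. That of *Chga* was lost in NT+/+ mice without AL replicate 2 or 5 or Fast replicate 3 or 4, and in NT-/- mice without AL replicate 2, 3 or 4 or Fast replicate 1. That of *Defa17* was lost without NT-/- AL replicate 1, 2 or 3 or NT-/- Fast replicate 2, 3, 4 or 5.

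Of 8 enterocyte markers, led by *Sis* and *Apoa1*, 5 were called in NT+/+ and 7 in NT-/- mice, all higher. Over all genes 21.6% and 25.2% were called in either direction. The markers' sum was 3708–7427 CPM in NT+/+ AL, 5586–8276 in NT-/- AL, 6890–14930 in NT+/+ Fast and 13150–17720 CPM in NT-/- Fast mice. *Fabp1*, a fatty acid binding protein of absorptive cells, rose by 2.09 and 2.06 and *Apoa1* by 1.39 and 1.75 on the log2 scale. Enterocyte markers and secretory factors thus moved within the same libraries, and how far the share of absorptive cells bears on the levels of *Notch2*, *Atoh1* or *Neurog3* was not tested. *Gzma*, a gene of intraepithelial lymphocytes, was called higher in NT-/- mice (0.97, adjusted p = 0.0356, edgeR), a call lost without NT-/- AL replicate 2, 3 or 4 or NT-/- Fast replicate 3 or 5.

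Several members share exon bases with other annotated genes, and the strand setting of the counting is not stated in the sources used here. If strand was ignored in counting, reads within the shared bases of opposite-strand genes could not be told apart. Such pairs are *Notch1* and *0610009E02Rik* (1068 shared bases, 0.107 to 1.58 CPM) and *Dll4* and *Gm14207* (214 bases, 1.28 to 3.03 CPM). Others are *Gfi1* and *A430072P03Rik* (101 bases, 0 to 0.206 CPM) and *Dll1* and *A930024N18Rik* (867 bases). *Notch2* shares 541 bases with *Gm42820* on its own strand, at 0.581 to 1.72 CPM.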

How the data were processed

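RNA of small-intestinal crypts was sequenced from 19 mice, 1 library each. The authors removed ribosomal RNA before library preparation, trimmed the single-end reads with Trimmomatic 0.39 and quantified them with RSEM on Ensembl transcripts of GRCm38. The deposited expected counts are estimates without normalization, and the deposited TPM were scaled by RSEM for length and depth. The deposited effective gene length, another column, stayed out of every result. How RSEM was set for strand, its version and any low-count filter are not given in the sources used here.

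Expected counts were rounded. Of 55487 gene IDs, 55141 were matched to a symbol. The 17875 genes passing filterByExpr were normalized with TMM (edgeR 4.0.16, R 4.3.3) and fitted with 1 coefficient for each of the 4 groups (15 residual degrees of freedom, common dispersion 0.0357), then tested with the quasi-likelihood test and Benjamini-Hochberg adjustment. Each standard error is the size of the log2 fold change over the square root of F, and 95% intervals use them. CPM use TMM library sizes, and patterns use log2(CPM + 1). The labels do not state that the mice of a group came from separate cages or litters, so p-values measure the spread between these mice. Scripts were tested on simulated data. Members and lists were chosen with earlier results of these data known, so counts over them are descriptions. Named genes were the 9 members; in each comparison, of the other pathway genes and of the other secretory factors, the 6 of smallest p among those called or, with fewer than 3 called, the 3 of smallest p; of each marker list the 2 of highest mean CPM and the 3 called genes of smallest p in each fasting comparison; the 2 genes nearest each member in pattern; and *Nts*. One enterocyte marker that this rule names is not reported here. Other genes called in a list, *Spdef* beside them, and genes that overlap a member were named after their values were seen. Promoters are RefSeq windows of GRCm38.p6, with coordinates of genes from GENCODE of GRCm38.

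Alternatives were no low-count filter, a minimum of 10 counts in all mice, upper quartile factors, DESeq2 (1.42.0), the likelihood ratio test of edgeR, a replicate block by title or file-name number, a sex term, the mouse of conflicting labels moved to NT-/-, fits of the compared groups alone, each mouse left out in turn, and, chosen after seeing the data, leaving out the 3 mice of file number 3.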

Additional observations from a re-analysis of the deposited data

Results flagged for a closer look

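Over 36 sets of values, 9 genes in 4 groups, 4 had a mouse whose distance from its nearest neighbor was large for the range of its group, and chance alone marks about 1 in 20 such sets. *Dll1* in NT+/+ AL replicate 4 was 53.19 CPM, above the next mouse at 44.84 CPM. *Gfi1* in NT-/- AL replicate 4 was 4.421 CPM, below the next at 8.234 CPM. The other 2 concern *Hey1*, at 0.0295 CPM (1 count) in NT-/- AL replicate 1, where the rest were at 0, and at 0.1973 CPM (2 counts) in NT-/- Fast replicate 4. At so few counts the rate of 1 in 20 does not hold, so the *Hey1* sets cannot be set against it.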

How the results depend on the processing

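The call of *Notch2* in fasted NT-/- mice held under all 11 other settings and all 19 fits without 1 mouse. Of 1192 alternative values of single members, 1129 kept their direction and side of the threshold, 60 changed sign without passing the test (none beyond 0.149 in size, adjusted p at least 0.611) and 3 newly passed. Of 59 calls of other listed genes, 41 held under every alternative and 0 changed direction. The cause of each change was not tested.

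Counts that moved by over 1.5 times were these. With no filter, 1 other secretory factor was called with fasting in NT+/+ mice, where 3077 of 34546 genes were called. In NT-/- mice 5 were called under upper quartile normalization and under the likelihood ratio test, where 4692 and 4605 of 17875 genes were called. Without the 3 mice of file number 3, 1 member (*Dll1*, 0.38) and 1 secretory factor (*Sox9*) were called in NT+/+ mice and 1 (*Klf4*) in NT-/- mice. That fit called 2833 of its 17668 genes in NT+/+ and 3881 in NT-/- mice. Over all genes DESeq2 called 101 and the likelihood ratio test 41 between genotypes in Fast mice, against 1.

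Fed controls were littermates matched for sex and age, but no source used here ties the numbers in titles or file names to litters, batches or days. A correlation over 0.1 was found in 21 of 27 pairs by title and 25 of 27 by file name, not in every pair. Asking for such a correlation in every pair was a choice, and on it the main fit was given no term for the numbers. Mice that share a file number were of the same sex wherever sex is given, while some title numbers hold both sexes. If file numbers mark matched sets, the main fit ignores that matching, and its adjusted p-values and absent calls hold only without it. Deviations from group means correlated at a mean r of 0.231 (−0.182 to 0.565) in 27 pairs sharing a title number and 0.285 (0.054 to 0.565) for the file number, against −0.057 and −0.071 otherwise, and 14 and 18 of 19 mice correlated best with their own number. With the replicate block of the title number, 2 members (*Atoh1*, −0.61, adjusted p = 0.0317 in edgeR, and *Notch2*) and 8 secretory factors were called in NT-/- mice. Over all 17875 genes this block called 5657 in NT-/- mice, against 4499 in the main fit. With the replicate block of the file number, *Atoh1* (−0.48) did not pass, and 6 secretory factors were called in NT-/- mice and 19 other pathway genes, 12 higher, in NT+/+ mice, against 10. Calls rose over all 17875 genes too, to 5484 in NT+/+ mice, against 3862 in the main fit, and to 5672 in NT-/- mice.

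Signs turned in members near 0. *Jag1* with fasting in NT-/- mice was 0.002 (at least 10 counts), 0.022 (DESeq2), 0.005 (likelihood ratio and compared groups only), 0.111 (file block), 0.044 (regrouped mouse) and 0.149 (without file number 3). Between AL genotypes *Dll4* was 0.006 (no filter), 0.001 (title block) and 0.003 (without file number 3), *Dll1* was −0.005 (file block), and *Jag1* was −0.116 (file block), −0.047 (sex) and −0.006 (without file number 3). With sex, *Dll4* with fasting in NT-/- mice was −0.002 and *Hes1* between Fast genotypes −0.003. For the difference, *Gfi1* was 0.048 (file block) and *Hes1* 0.139 (regrouped mouse). Without file number 3, *Atoh1* and *Gfi1* with fasting in NT+/+ mice were 0.066 and 0.140.

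When each mouse was left out in turn, values ran as follows. With fasting in NT+/+ mice these were *Atoh1* from −0.253 to 0.1, *Gfi1* from −0.241 to 0.147 and secretory factors called from 0 to 2. With fasting in NT-/- mice these were *Atoh1* from −0.844 to −0.377, *Dll1* from −0.005 to 0.179, *Dll4* from −0.077 to 0.112, *Jag1* from −0.108 to 0.149, members called from 1 to 2 and secretory factors called from 1 to 6. Between AL genotypes these were *Dll1* from −0.004 to 0.176, *Dll4* from −0.093 to 0.095, *Gfi1* from −0.151 to 0.118, *Jag1* from −0.031 to 0.107 and *Notch2* from −0.092 to 0.014. For the difference these were *Gfi1* from −0.48 to 0.04 and *Hes1* from −0.17 to 0.117. Between Fast genotypes these were *Hes1* from −0.043 to 0.244 and *Jag1* from −0.405 to 0.018.

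Depth limited *Hey1*, at most 4 counts.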
